A study of Mus musculus with 6 samples.

Results

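The genes described are 7 interferon regulatory factor (IRF) genes, Irf1, Irf2, Irf3, Irf5, Irf7, Irf8 and Irf9, and 3 genes that restrain cytokine signaling, Usp18, Socs1 and Socs3. They were chosen by gene symbol, and all 10 were found among the 24346 symbols of the expression tables. RNA sequencing was performed in CT26.mMR1 cells, which are CT26 mouse colorectal tumor cells transduced by retrovirus with mouse MR1, and in M8, a mutant of these cells. M8 is 1 clone, obtained by limiting dilution after treatment with the mutagen N-ethyl-N-nitrosourea (ENU) and singled out for stronger stimulation of a MAIT reporter cell line and for high surface MR1, so that an effect of mutagenesis and a difference between clones cannot be told apart. Both groups carry the MR1 transgene, and no interferon treatment is named for either. Each had 3 RNA samples (parental and M8 cells hereafter, labelled CT26_cl9 and CT26_cl9_M8). They are called biological replicates, but the sources used here do not say whether they came from separate cultures, and p-values therefore measure the spread between these samples.

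IRFs are transcription factors that share an amino-terminal DNA-binding domain. IRF3 and IRF7 are phosphorylated downstream of nucleic acid sensors and induce interferon genes, whereas IRF9 is part of the complex ISGF3, together with STAT2, and ISGF3 binds the interferon-stimulated response element (ISRE) of target genes after type I interferon. IRF1 and IRF2 bind similar elements, IRF1 mostly as an activator and IRF2 often as a repressor. USP18 removes the ubiquitin-like protein ISG15 from its targets and blocks the type I interferon receptor, SOCS1 inhibits JAK kinases, and SOCS3 acts chiefly on receptors of the interleukin-6 family. Several of these genes are themselves induced by interferon, among them Irf1, Irf7, Irf9, Usp18 and Socs1.

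The 6 libraries held between 13747 and 14357 genes with a value above 0. From the steps of weakly expressed genes, the depth relative to parental replicate 1 was 0.948 and 1.07 in the other parental libraries and 0.772 to 0.875 in the M8 libraries. Values are FPKM (fragments per kilobase of exon, scaled to the mapped fragments of the library). The labels name colon as the source, but 12 of 14 colon epithelial markers stayed below 1 FPKM in every library. Of the 14, 5 were listed at 0 in all libraries, Epcam, Cdh1 and Cdx2 among them, and 9 had a value above 0 in at least 1 library, of which Krt18 and Krt20 exceeded 1 FPKM. In the comparison described below, Krt20 was lower in M8 (log2 fold change -0.50) and Krt18 did not pass. Of 16 leukocyte markers, 15 stayed below 1 FPKM in every library.

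Promoter sequences are shown first, because ISRE and GAS elements (the sites of ISGF3 and of STAT dimers) are the route by which interferon is known to reach several of these genes. RefSeq windows of GRCm38.p6, from 250 bases before to 50 bases after a start site, were at hand for 9 of the 10 genes (12 windows), Usp18 being the exception. They are the reference sequence and were not read from these cells. The ISRE core searched was GAAANNGAAA on both strands, and the GAS core was TTCNNNGAA, which reads the same on both. An ISRE core was found in 2 of the 12 windows, those of Irf2 and Socs1, and in 3.44% of all 32851 windows. A GAS core was found in 4 of the 12 windows, those of Irf1, Irf2, Irf8 and Socs3, and in 8.30% of all windows. The windows of Irf3, Irf5, Irf7 and Irf9 held neither core. Both Irf9 windows follow RefSeq starts inside its GENCODE span, and the sequence before its GENCODE start was not searched. The stretches below show the cores of 4 genes in capitals. They lie at chr11:53769889-53769967 (Irf1, plus strand), chr8:46739495-46739564 (Irf2, plus strand), chr16:10785569-10785654 (Socs1, minus strand) and chr11:117969477-117969555 (Socs3, minus strand), each written 5′ to 3′ in the direction of its gene.
Irf1: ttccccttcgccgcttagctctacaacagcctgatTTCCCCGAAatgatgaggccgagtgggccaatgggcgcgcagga
Irf2: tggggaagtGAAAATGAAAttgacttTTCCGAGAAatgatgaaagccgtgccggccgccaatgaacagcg
Socs1: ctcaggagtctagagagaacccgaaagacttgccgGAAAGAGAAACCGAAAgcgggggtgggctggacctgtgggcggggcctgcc
Socs3: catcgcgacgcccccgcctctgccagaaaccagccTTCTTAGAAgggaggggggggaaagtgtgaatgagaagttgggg
In Socs1 a pair of ISRE cores overlap and are read as 1 run of capitals, and their overlap lies 77 to 74 bases before the start. In Irf2 the ISRE core begins 241 bases and the GAS core 224 bases before the start. The Socs3 stretch lies before the RefSeq start but within the GENCODE span of the gene.

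The levels of the 10 genes spanned a wide range. FPKM values are corrected for transcript length, so levels can be set side by side. Irf7 was highest, with 339 ± 8.66 FPKM in the parental group and 443 ± 3.39 FPKM in M8 (SD, n = 3 each), and its level ranked 208 among all 24346 genes. Usp18 followed at rank 633, Irf9 at rank 2139 and Irf1 at rank 3411. Irf2 and Irf3 came next, near 20 FPKM, and their replicates overlapped in both groups. Socs3 and Socs1 were near 10 FPKM, apart in parental cells and overlapping in M8. Irf5 and Irf8 were the lowest in both groups. The replicates of the other neighbors in this order did not overlap in either group.

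**Figure D1:**
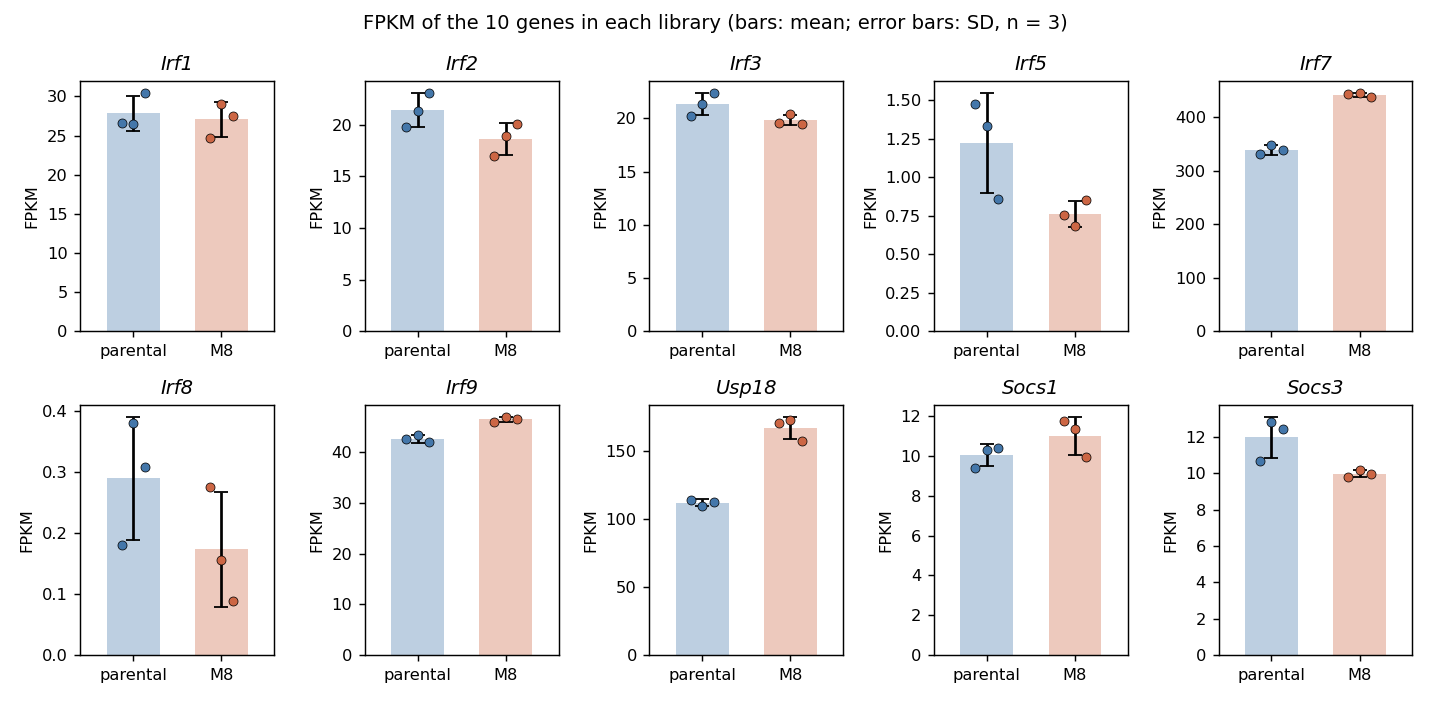
Each panel plots the FPKM of 1 gene (vertical axis, from 0) in the 3 parental and 3 M8 libraries as points, with bars for the mean and error bars for the SD. Usp18, Irf7 and Irf9 were higher in every M8 library than in any parental library, Socs3 and Irf5 were lower, and the libraries of the other 5 genes overlapped.

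The comparison asked which of these genes differ between M8 and parental cells. In limma on log2(FPKM + 1), with Benjamini-Hochberg adjustment over all 10597 genes tested and an adjusted p below 0.1, Usp18, Irf7 and Irf9 were higher in M8, and Irf2 and Socs3 were lower. Irf1, Irf3 and Socs1 did not pass, and Irf5 and Irf8 were below the minimum of 1 FPKM on average and were not tested. These 3 higher and 2 lower genes of 8 tested stand beside 21.2% of all genes tested that were higher and 16.5% that were lower. As a median, the log2 fold change came to 0.039 over the 8 genes and to 0.0069 over all genes. The genes that passed went in both directions. Over all genes the split of 2250 higher to 1745 lower turned to 1658 and 2209 under TPM scaling and to 1470 and 2769 under upper-quartile scaling, under both of which Irf9 no longer passed and Irf3 passed as lower. The M8 and parental values did not overlap in 4 of the 8 genes, as in 45.2% of all genes tested. In bulk RNA, fewer cells that express a gene and less RNA per cell cannot be told apart.

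**Figure D2:**
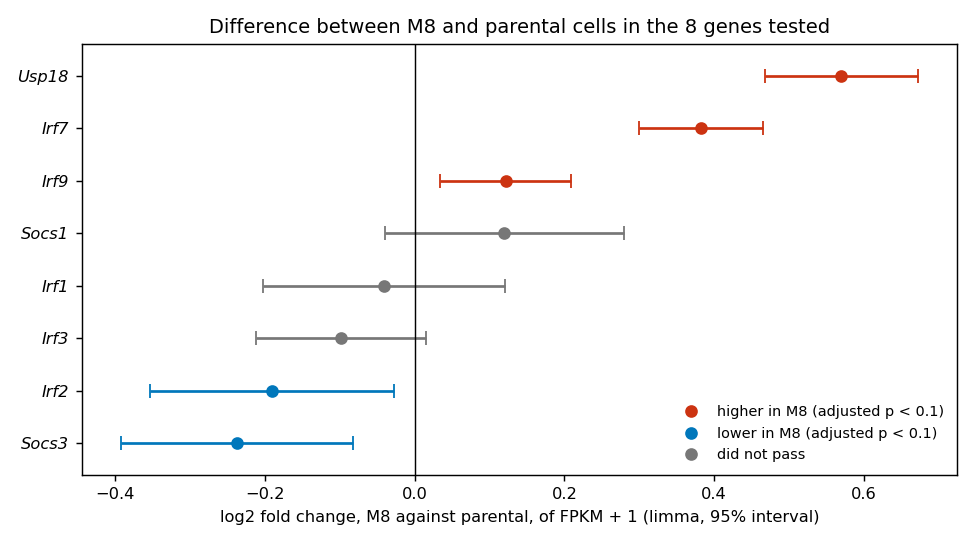
The log2 fold change of M8 against parental cells (horizontal axis, FPKM + 1, limma) is plotted for the 8 genes tested, with its 95% interval. The intervals of Usp18, Irf7 and Irf9 lie above 0, those of Irf2 and Socs3 below 0, and those of Socs1, Irf1 and Irf3 include 0.

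Irf7, often called the master regulator of type I interferon genes, was expressed at 331, 348 and 339 FPKM in parental replicates 1 to 3 and at 443, 445 and 439 FPKM in the M8 replicates. All M8 values were above all parental values, and the spread within each group was small (coefficient of variation 2.55% in parental cells and 0.766% in M8). The ratio of the means was 1.30, and the log2 fold change was 0.38 ± 0.037 (SE, 95% interval 0.30 to 0.47, adjusted p = 0.000267 in limma). Irf7 kept its call in all 17 alternative settings, with log2 fold changes from 0.26 under quantile normalization to 0.40. It lies on chromosome 7 from 141262706 to 141266481 (minus strand, GRCm38, which is mm10), where its exons overlap those of Phrf1 on the opposite strand. Phrf1 did not pass, at 20.4 ± 1.09 and 20.2 ± 0.314 FPKM in the parental and M8 libraries (SD, n = 3 each).

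Irf9 encodes the DNA-binding subunit of ISGF3. Its values were 42.6, 43.5 and 41.9 FPKM in parental cells and 45.9, 47.0 and 46.5 FPKM in M8. The groups did not overlap, although the means differed by a ratio of only 1.09 (log2 fold change 0.12 ± 0.039, SE, adjusted p = 0.0444 in limma). This call was lost under TPM, upper-quartile and quantile scaling (log2 fold change 0.086, 0.061 and 0.048, limma adjusted p from 0.180 to 0.415), and without M8 replicate 2 (adjusted p = 0.136) or M8 replicate 3 (adjusted p = 0.105). Irf9, on chromosome 14 from 55603571 to 55610030, shares exonic sequence with Rnf31 on the same strand, so that reads of the shared part can be counted with either gene. Rnf31 was at 18.6 ± 0.890 and 18.8 ± 0.296 FPKM (SD, n = 3 each) and did not pass. Stat2, whose protein pairs with IRF9 in ISGF3, was at 35.5, 30.7 and 30.9 FPKM in parental cells and at 42.0, 40.5 and 39.3 FPKM in M8, without overlap (log2 fold change 0.32 ± 0.060, SE, adjusted p = 0.00488 in limma). The difference between the fold changes of Stat2 and Irf9 was not tested.

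Irf3, the constitutively expressed counterpart of Irf7, did not follow it. The values of Irf3 were 20.3, 21.4 and 22.4 FPKM in parental cells and 19.6, 20.4 and 19.5 FPKM in M8, and the groups overlapped. The log2 fold change was -0.099 (95% interval -0.21 to 0.014, limma adjusted p = 0.171). An increase of the size seen for Irf7 lies outside this interval. Irf3 passed as lower under TPM (adjusted p = 0.0643) and upper-quartile scaling (adjusted p = 0.0374), and without parental replicate 1 (adjusted p = 0.0833). Its exons overlap those of Bcl2l12 on the opposite strand (chromosome 7, 44997648 to 45002848). Bcl2l12 was at 5.75 ± 0.811 and 4.71 ± 0.654 FPKM in the parental and M8 libraries (SD, n = 3 each) and did not pass (log2 fold change -0.24, adjusted p = 0.126).

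Irf1, whose promoter carries the GAS core shown above, is a prompt target of interferon gamma. Its exons (chromosome 11, 53770014 to 53778374) overlap those of Gm17334 on the opposite strand. Irf1 was at 26.6, 26.5 and 30.4 FPKM in parental cells and at 24.6, 29.0 and 27.5 FPKM in M8. The values of both groups were interleaved, with a log2 fold change of -0.041 (95% interval -0.20 to 0.12, limma adjusted p = 0.704). The sign turned without parental replicate 3 or without M8 replicate 1, with log2 fold changes of 0.023 in both fits.

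Irf2, which competes with Irf1 for the same elements, was at 19.8, 21.3 and 23.1 FPKM in parental cells and at 16.9, 18.9 and 20.1 FPKM in M8. The highest M8 value was above the lowest parental value. Irf2 passed as lower, with a log2 fold change of -0.19 ± 0.072 (SE, adjusted p = 0.0776 in limma). This call was lost in 4 of the 6 fits that left out a library, which were those without parental replicate 2 or 3 (adjusted p = 0.145 and 0.203) and without M8 replicate 1 or 2 (adjusted p = 0.253 and 0.136). It was also lost with no filter on low values (adjusted p = 0.163), in eBayes without a trend (adjusted p = 0.110) and at a threshold of 0.05. The call was kept in 10 of 17 alternatives, among them the fit with replicate numbers as a block (limma adjusted p = 0.0233). Irf2 lies on chromosome 8 from 46739732 to 46847458. Its promoter holds the ISRE core shown above.

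Irf5 and Irf8 are best known from myeloid cells and B cells. Irf5 was at 1.48, 1.33 and 0.858 FPKM in parental cells and at 0.756, 0.681 and 0.852 FPKM in M8. Every M8 value was lower, yet the highest M8 value and parental replicate 3 nearly met. The mean of the 6 values was 0.993 FPKM, just under the minimum for the test. The log2 difference was -0.33 (exact two-sided permutation test, p = 0.1, the smallest that 3 against 3 samples allow), and in the limma fit without a filter the adjusted p was 0.114. Parental replicate 3 held the parental value nearest to M8. Leaving it out took Irf5 over the minimum, and Irf5 then passed as lower (log2 fold change -0.45, limma adjusted p = 0.0318). Irf5 got over the minimum there only through parental values, as every M8 value was under 1 FPKM. This call therefore adds no support. Irf5 was also over the minimum without M8 replicate 1, 2 or 3 and did not pass in these fits (limma adjusted p = 0.188, 0.218 and 0.130). Irf5 lies on chromosome 6 from 29526625 to 29541871 and Irf8 on chromosome 8 from 120736358 to 120756694. Exons of Tnpo3 on the opposite strand overlap Irf5, and Tnpo3 was higher in M8, at 57.5 ± 0.454 against 52.8 ± 1.71 FPKM (SD, n = 3 each).

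Irf8 was at 0.180, 0.380 and 0.308 FPKM in parental cells and at 0.275, 0.156 and 0.0889 FPKM in M8. Once scaled by the relative depth, these values were whole multiples of 1 step within 0.03 of a read, equal to 12, 24 and 22 reads in the parental libraries and to 16, 8 and 5 reads in M8. The groups overlapped (log2 difference -0.14, exact two-sided permutation test, p = 0.2). The summed level over 16 leukocyte markers was lower in M8 and rested largely on Cd68. It was 4.55 to 6.15 FPKM in the parental libraries and 1.65 to 3.33 FPKM in M8, and the only one above 1 FPKM was Cd68, which fell from 4.31 ± 0.563 to 1.76 ± 0.605 FPKM (SD, n = 3 each). Cd3e, Adgre1, Csf1r, Fcer1g and Laptm5 were listed at 0 in all 6 libraries, and Ptprc did not exceed 0.00797 FPKM. The part of such cells in these differences was not tested.

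Among the brakes, Usp18 rose most of all 10 genes. It was at 114, 109 and 113 FPKM in parental cells and at 170.5, 173 and 157 FPKM in M8, with no overlap between the groups. The ratio of the means was 1.49 and the log2 fold change was 0.57 ± 0.045 (SE, 95% interval 0.47 to 0.67, adjusted p = 0.000163 in limma), the 62nd largest increase among the 10597 genes tested. Its log2 fold change ranged from 0.47 to 0.61 over the 17 alternative settings, and Usp18 passed in all of them. The gene lies on chromosome 6 from 121245906 to 121270917, where an exon of the long noncoding RNA Gm44148 overlaps it on the opposite strand. Isg15, which encodes the protein that USP18 removes, rose by a similar size, from 315, 284 and 309 FPKM to 466, 463 and 444 FPKM (log2 fold change 0.60 ± 0.047, SE, adjusted p = 0.000163 in limma).

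Socs1, on chromosome 16 from 10782240 to 10785536, carries the overlapping ISRE cores shown above. Socs1 was at 9.42, 10.3 and 10.4 FPKM in parental cells and at 11.8, 11.4 and 9.95 FPKM in M8. The groups overlapped through M8 replicate 3. The log2 fold change was 0.12 (95% interval -0.040 to 0.28, limma adjusted p = 0.235), and only without that library did Socs1 pass (log2 fold change 0.19, adjusted p = 0.0849). An increase as large as that of Usp18 lies outside the interval.

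Socs3 went the other way. Its values were 10.7, 12.8 and 12.5 FPKM in parental cells and 9.83, 10.2 and 9.95 FPKM in M8, so that every M8 value was below every parental value. Socs3 fell to a ratio of 0.833 (log2 fold change -0.24 ± 0.069, SE, adjusted p = 0.0304 in limma). It passed in 16 of 17 alternative settings, and the exception was the fit without parental replicate 2 (log2 fold change -0.19, adjusted p = 0.103). Socs3 lies on chromosome 11 from 117966079 to 117970047.

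**Figure D3:**
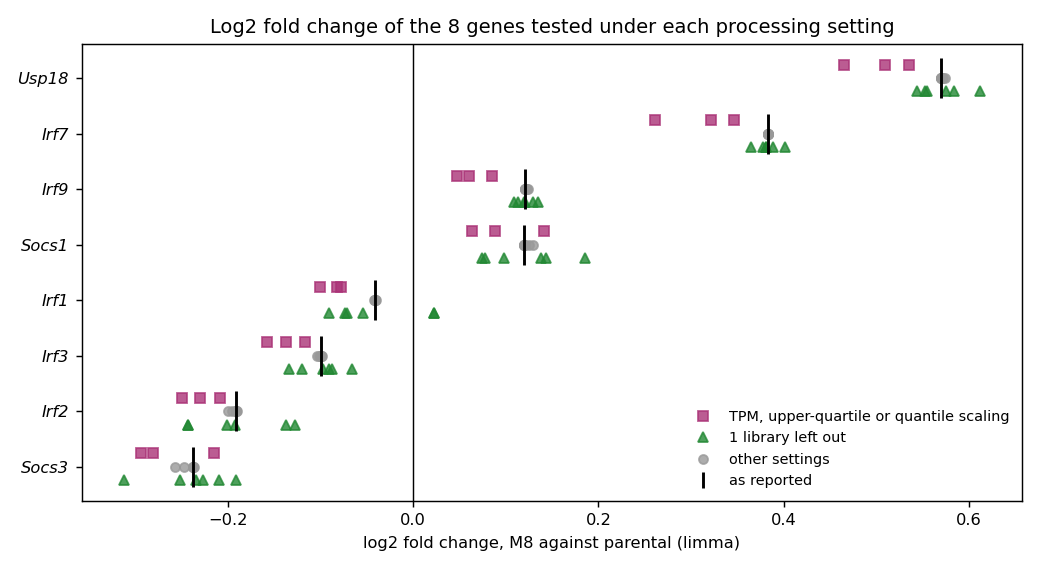
The log2 fold change of M8 against parental cells (horizontal axis, limma) is plotted for the 8 genes tested, as reported (black line) and under each alternative, with scalings as squares, fits without 1 library as triangles and other settings as circles. Usp18 stays between 0.47 and 0.61 and Irf7 between 0.26 and 0.40, and of the 8 genes only Irf1 has values on both sides of 0.

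Other genes of the pathway were taken from lists of known members, and they too were chosen with earlier results of these data known. Each count below stands beside the 21.2% higher and 16.5% lower of all genes tested, of which 6602 did not pass. Among 31 target genes of ISGF3, 29 were higher in M8, 1 was lower and 1 did not pass (median log2 fold change 0.33, and 25 higher under upper-quartile and quantile scaling). Ifi44l had a log2 fold change of 1.19, Mx1 of 0.75 and Ifit3 of 0.53, whereas Ifi27 had one of -0.66. These are antiviral or interferon-induced genes, and Ifi27 was the only one of the list to fall. In the system that attaches ISG15 to proteins, 4 of 5 genes were higher and none was lower (median 0.30), including the conjugating enzyme Ube2l6 (log2 fold change 0.45), the activating enzyme Uba7 (0.30) and the ligase Trim25 (0.12). Trim25 passed in 8 of 17 alternatives, and the gene of this list that did not pass was Herc6 (log2 fold change 0.13, limma adjusted p = 0.120). Of 19 tested targets of IRF1 and interferon gamma, 10 were higher and 1 was lower (median 0.25), with log2 fold changes of 0.84 for Gbp3, 0.81 for Psmb10, 0.61 for Iigp1 and 0.51 for Tapbp. The lower gene, Tap2, did not pass without M8 replicate 3. The other 8, among them Cd274, Nlrc5 and B2m, did not pass.

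**Figure D4:**
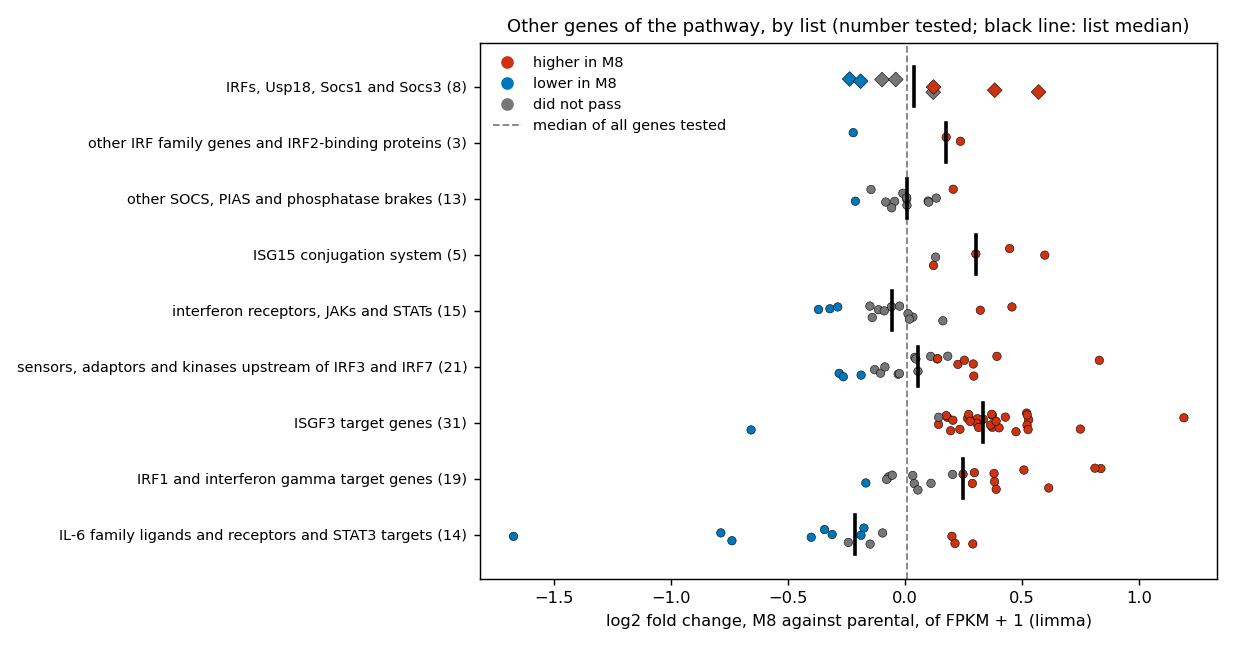
Each point is the log2 fold change of 1 gene (horizontal axis, M8 against parental, limma), grouped by list, with the number of genes tested in brackets, a black line at each list's median and a dashed line at the median of all genes. Points of the ISGF3 targets lie to the right of 0 except that of Ifi27, whereas the IRF and brake genes lie on both sides.

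Upstream of the IRFs, 8 of 21 tested sensors, adaptors and kinases were higher and 3 were lower (median 0.055, and -0.0052 with 5 lower under upper-quartile scaling). The nucleic acid sensor Zbp1 changed most (log2 fold change 0.83), followed by the nuclease Trex1 (0.39), the adaptor Myd88 (0.29) and the RNA sensor Ddx58 (0.29). The 3 lower genes were the kinase gene Ikbke (log2 fold change -0.28), Tlr4 (-0.26) and Irak4 (-0.19), and Irak4 passed in 10 of 17 alternatives. The kinase gene Tbk1 did not pass (log2 fold change 0.041, limma adjusted p = 0.595). Transcripts of interferons themselves were scarce. All 20 interferon genes stayed below 1 FPKM, 17 were listed at 0 in every library, and Ifnb1 came to 2, 1 and 1 reads in parental and 0, 5 and 3 reads in M8 cells. Of 15 receptors, JAKs and STATs tested, 2 were higher, Stat2 among them, and 3 were lower, namely Stat3 (-0.37), Jak3 (-0.32) and Tyk2 (-0.29), each given as a log2 fold change. Under upper-quartile scaling 7 were lower.

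Of 13 other brakes tested (SOCS, PIAS and phosphatase genes), 1 was higher and 1 was lower, as against 21.2% and 16.5% of all genes (median 0.0060, below 0 under TPM, upper-quartile and quantile scaling, with no filter on low values, and without parental replicate 1 or M8 replicate 3). The phosphatase Ptpn11 rose by a log2 fold change of 0.21, and Socs6 had one of -0.21, a call lost without parental replicate 2 or M8 replicate 1. Without parental replicate 1, 2 brakes were higher, without parental replicate 3, 2 were lower, and under upper-quartile scaling 3 were lower. Irf4, an IRF of lymphocytes, stayed below 1 FPKM. The IRF2-binding protein genes Irf2bp1 (log2 fold change 0.24) and Irf2bp2 (0.17) were higher and Irf2bpl was lower (-0.22), and Irf2bp2 passed in 11 of 17 alternatives, not in those without parental replicate 1, M8 replicate 1 or M8 replicate 3. Beside Socs3, 8 of 14 tested genes of the interleukin-6 family and of STAT3 targets were lower and 3 were higher (median -0.22). Between 6 and 8 were lower when a library was left out. Only 1 was higher without parental replicate 2, without M8 replicate 2 or under upper-quartile scaling. Lcn2, a lipocalin, fell by 1.67 on the log2 scale, the acute phase gene Saa3 by 0.79, the ligand Il11 by 0.74 and the kinase Pim1 by 0.40. Saa3 passed in 12 of 16 alternatives, not without parental replicate 1, M8 replicate 2 or M8 replicate 3. The receptor subunit gene Il6st (log2 fold change 0.29), the transcription factor gene Cebpd (0.21) and the receptor gene Il6ra (0.20) were higher, and they passed in 17, 14 and 8 of 17 alternatives.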

How the data were processed

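Total RNA of 3 parental and 3 M8 samples was sequenced from stranded mRNA libraries as 101-base single reads. Reads were mapped by the authors with TopHat (build mm10), and Cufflinks gave the FPKM values they deposited. The submitters' processing notes name TopHat2 2.1.1, Bowtie2 2.2.8, SAMtools 0.1.18 and Cuffdiff 2.2.1. The annotation, any filter on low values and the strand setting are not given in the sources used here. The study's own comparison used read counts, which were not used here.

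Differences were tested with limma 3.58.1 in R 4.3.3 on log2(FPKM + 1), letting the prior variance of eBayes follow the mean. Of 24346 genes, 10597 averaged 1 FPKM or more and were tested, and p was adjusted by Benjamini-Hochberg over them. An adjusted p below 0.1, the study's false discovery rate, counted as higher or lower, with no minimum fold change. A fold change on this scale understates that of low genes. The fit was tested on simulated data. Relative depth came from the commonest ratio of values below 0.3 FPKM between libraries. Absolute depth was not derived, and no counting interval is given. The genes and the 11 lists were chosen with earlier results of these data known. In each list the text names up to 4 genes with the largest change among those that passed, or, without any, up to 2 with the highest level. Isg15 and Stat2 are named as partners, and further genes as examples after their values were seen. Some genes that this rule names are not reported here. Positions come from GENCODE M21 (GRCm38) and promoters from RefSeq (GRCm38.p6). As alternatives, the pseudocount was set to 0.1 or 0.5, the filter was dropped or raised to 5 FPKM, and values were centred on the median, rescaled to TPM or by the upper quartile, or quantile normalized. The trend was left out, the threshold was lowered to 0.05, replicate numbers entered as a block, and every library was omitted once. Python 3.11.15 with pandas 2.3.3 and matplotlib 3.10.9 served for tables and plots.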

Additional observations from a re-analysis of the deposited data

How the results depend on the processing

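Usp18 and Irf7 were higher in M8 in all 17 alternatives. The number of higher genes among the 8 was 3, and 2 under TPM, upper-quartile and quantile scaling and without M8 replicate 2. The number of lower genes was 2. It was 3 under TPM and upper-quartile scaling. It was 1 with no filter on low values, in eBayes without a trend and at an adjusted p below 0.05, and it ranged from 0 (without parental replicate 2) to 3 (without parental replicate 1) when a library was left out. It was 1 without M8 replicate 1 or 2. When parental replicate 3 was omitted, Irf2 did not pass, and the 2 lower genes were Socs3 and Irf5. In that fit Irf5 was over the filter only through its parental values. Over all genes, 2250 were higher and 1745 lower. Upper-quartile scaling gave 1470 and 2769 and TPM gave 1658 and 2209, while leaving out a library gave 1609 to 2101 higher and 1157 (without M8 replicate 1) to 1672 lower genes. No scaling moved the median of all genes beyond -0.049. Irf1 changed sign without parental replicate 3 (0.0227) and without M8 replicate 1 (0.0231), not called in either fit, and over the fits without 1 library its log2 fold change ranged from -0.0908 to 0.0231. The cause of these shifts was not tested. With the replicate number as a block, 3 of the 8 genes were higher and 2 lower, and 2171 and 1688 of all genes. Deviations from the group mean correlated between same-numbered samples with r of 0.10, -0.11 and -0.033, and between other-numbered samples with r from -0.13 to 0.18. The numbers thus gave no sign of pairing, but with 3 samples in each group these values cannot exclude it. Irf8 could be fitted only without a filter, and Irf5 only then and in 4 of the fits without a library. Irf8 rested on 5 to 24 reads in a library.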
